A study of Mus musculus with 14 samples.

Results

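The 10 genes followed here are known from Schwann cells and myelin: Cdh19, Mbp, Ngfr, Mal, Fxyd1, Kcna1, Art3, Chl1, Pmp22 and Cadm4. Their RNA was compared across the sorted cell populations of the mouse mammary gland. They were chosen because earlier results of these data had shown them high with Thy1 or in basal cells, and each was taken as the mean of all its single-symbol probe sets, 19 probe sets of 9645, for 10 genes of 6044 named ones. All 10 were in the table. The study asked how cells that carry the surface protein Thy-1 differ from the other mammary cells. The arrays used here measured total RNA of 5 populations from virgin female C57BL/6J mice aged 6 to 8 weeks, with no transgene or treatment named in the labels, and all were double sorted after staining for the blood, endothelial and red cell markers CD45, CD31 and Ter119 (the study's methods also list an antibody to CD140α, a fibroblast marker). The populations were Thy-1+CD24medCD49fhigh (Thy-1+ below, 3 arrays), Thy-1-CD24medCD49fhigh (Thy-1-, 3 arrays), CD24medCD49fmed (CD49fmed, 3 arrays, a population that the paper's text calls CD24lowCD49fmed), CD24highCD49fmed (CD24high, 3 arrays) and CD24medCD49f-/low (CD49f-/low, 2 arrays). The first 3 populations were basal and the last 2 luminal. Each of the 15 basal epithelial markers looked at was higher on each of the 9 basal arrays than on any of the 5 luminal ones. The same held for 9.51% of all rows. These markers were listed with earlier results of these data known, so they describe the split and do not test it. Whether each replicate was a separate pool or animal is not stated, so p-values measure only the spread between these arrays, which may be technical. In sorted bulk RNA, fewer cells of a type and less RNA per cell cannot be told apart.

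Schwann cells are the glia of peripheral nerves. Myelinating Schwann cells wrap an axon in compacted membrane held together by a few abundant proteins, while non-myelinating ones enclose several thin axons and keep markers of the immature lineage. Sox10 and Egr2 are transcription factors of the lineage, of which Egr2 switches on myelin genes. Many of these proteins are also made outside nerves, and Pmp22, Mal, Ngfr and Egr2 are all known from epithelia. Thy1 encodes a surface glycoprotein anchored by a lipid, found on neurons, fibroblasts and T cells of the mouse.

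Promoters of the genes were set beside the expression values, because 9 of the 10 genes shared their highest arrays. Windows of 250 bases upstream of the annotated start (RefSeq, GRCm38.p6) were at hand for 7 of the 10 genes, 12 windows in all, with none for Cdh19, Mbp and Kcna1. The windows were searched on both strands for the core words bound by SOX proteins, ACAAAG and ACAATG, and for the EGR word GTGGGCG. The 3 windows below belong to the genes that, of the 5 with 1 annotated start, correlated most with Thy1 in basal cells, and they are written 5′ to 3′ on the gene's own strand with matches in capitals. Mal lies at chr2:127656696-127656945 on the minus strand, Fxyd1 at chr7:31054854-31055103 on the minus strand and Cadm4 at chr7:24481773-24482022 on the plus strand.
Mal: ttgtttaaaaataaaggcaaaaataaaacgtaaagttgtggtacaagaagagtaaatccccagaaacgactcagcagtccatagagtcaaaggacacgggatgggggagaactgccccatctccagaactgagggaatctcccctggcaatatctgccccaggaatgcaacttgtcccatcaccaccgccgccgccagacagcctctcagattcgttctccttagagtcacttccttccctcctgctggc
Fxyd1: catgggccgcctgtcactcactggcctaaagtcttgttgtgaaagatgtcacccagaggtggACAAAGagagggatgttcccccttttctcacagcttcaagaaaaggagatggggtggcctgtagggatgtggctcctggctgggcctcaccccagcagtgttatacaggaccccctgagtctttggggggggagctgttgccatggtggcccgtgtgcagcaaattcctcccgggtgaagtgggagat
Cadm4: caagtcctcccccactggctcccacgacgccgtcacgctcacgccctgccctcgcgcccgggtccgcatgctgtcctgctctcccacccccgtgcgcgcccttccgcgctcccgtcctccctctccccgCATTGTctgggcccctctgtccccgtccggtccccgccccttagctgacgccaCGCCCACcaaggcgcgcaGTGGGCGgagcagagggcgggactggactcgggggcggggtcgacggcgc
No searched word was in the Mal window. The Fxyd1 window held ACAAAG 188 bases before the start. The Cadm4 window held CATTGT, the reverse complement of the second SOX word, 121 bases before the start, and the EGR word on both strands, 68 and 50 bases before it. In base composition the 3 windows ran apart, from 50.0% G and C with 7 CpG in Mal and 57.2% with 3 CpG in Fxyd1 to 75.2% with 30 CpG in Cadm4, against medians of 52.4% and 6 CpG over 32851 windows of all genes. A SOX word was found in 4 of the 12 member windows (in Art3, Chl1, Fxyd1 and Cadm4) and in 25.2% of all windows, and the EGR word in 1 of 12 and in 7.02%. A match is only a run of letters, and these counts describe no binding.

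All values below are the deposited log2 values, centred so that 0 is a gene's mean over its probe sets and the 14 arrays. They carry no absolute level, so that genes can be set against each other only by their differences between arrays. Thy1 itself, on its 1 probe set, was 2.00, -0.07 and 3.03 on the Thy-1+ arrays, -0.77, -0.10 and -0.36 on the Thy-1- arrays, 0.73, -0.46 and 0.12 on the CD49fmed arrays, -1.19, -0.93 and -0.74 on the CD24high arrays and -0.53 and -0.74 on the CD49f-/low arrays. Thy-1+ replicate 2 thus lay among the other basal arrays in Thy1 mRNA, below CD49fmed replicates 1 and 3, and stood apart from Thy-1+ replicates 1 and 3. Thy-1+ replicates 1 and 3 also had the lowest medians over all 7190 rows of the table, -0.74 and -0.51, where the other 12 arrays lay between -0.15 and 0.28. For these reasons a Thy-1+ step that is printed below for a gene or list is given with replicate 2 and also without it, except under altered processing. A pair of differences describes each gene. The Thy-1+ step is the mean of the 3 Thy-1+ arrays minus the mean of the 6 other basal arrays, and the basal step is the mean of those 6 arrays minus the mean of the 5 luminal arrays. For Thy1 they were 1.79 (SE 0.57), or 2.65 without Thy-1+ replicate 2, and 0.69. Each SE is the moderated one of limma, which pools the groups compared and is drawn towards the spread of all rows. It can thus be smaller or larger than a gene's own arrays would give. Among the 10 genes, the SD over the 3 Thy-1+ arrays ran from 0.19 in Pmp22 to 2.02 in Cdh19.

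**Figure D1:**
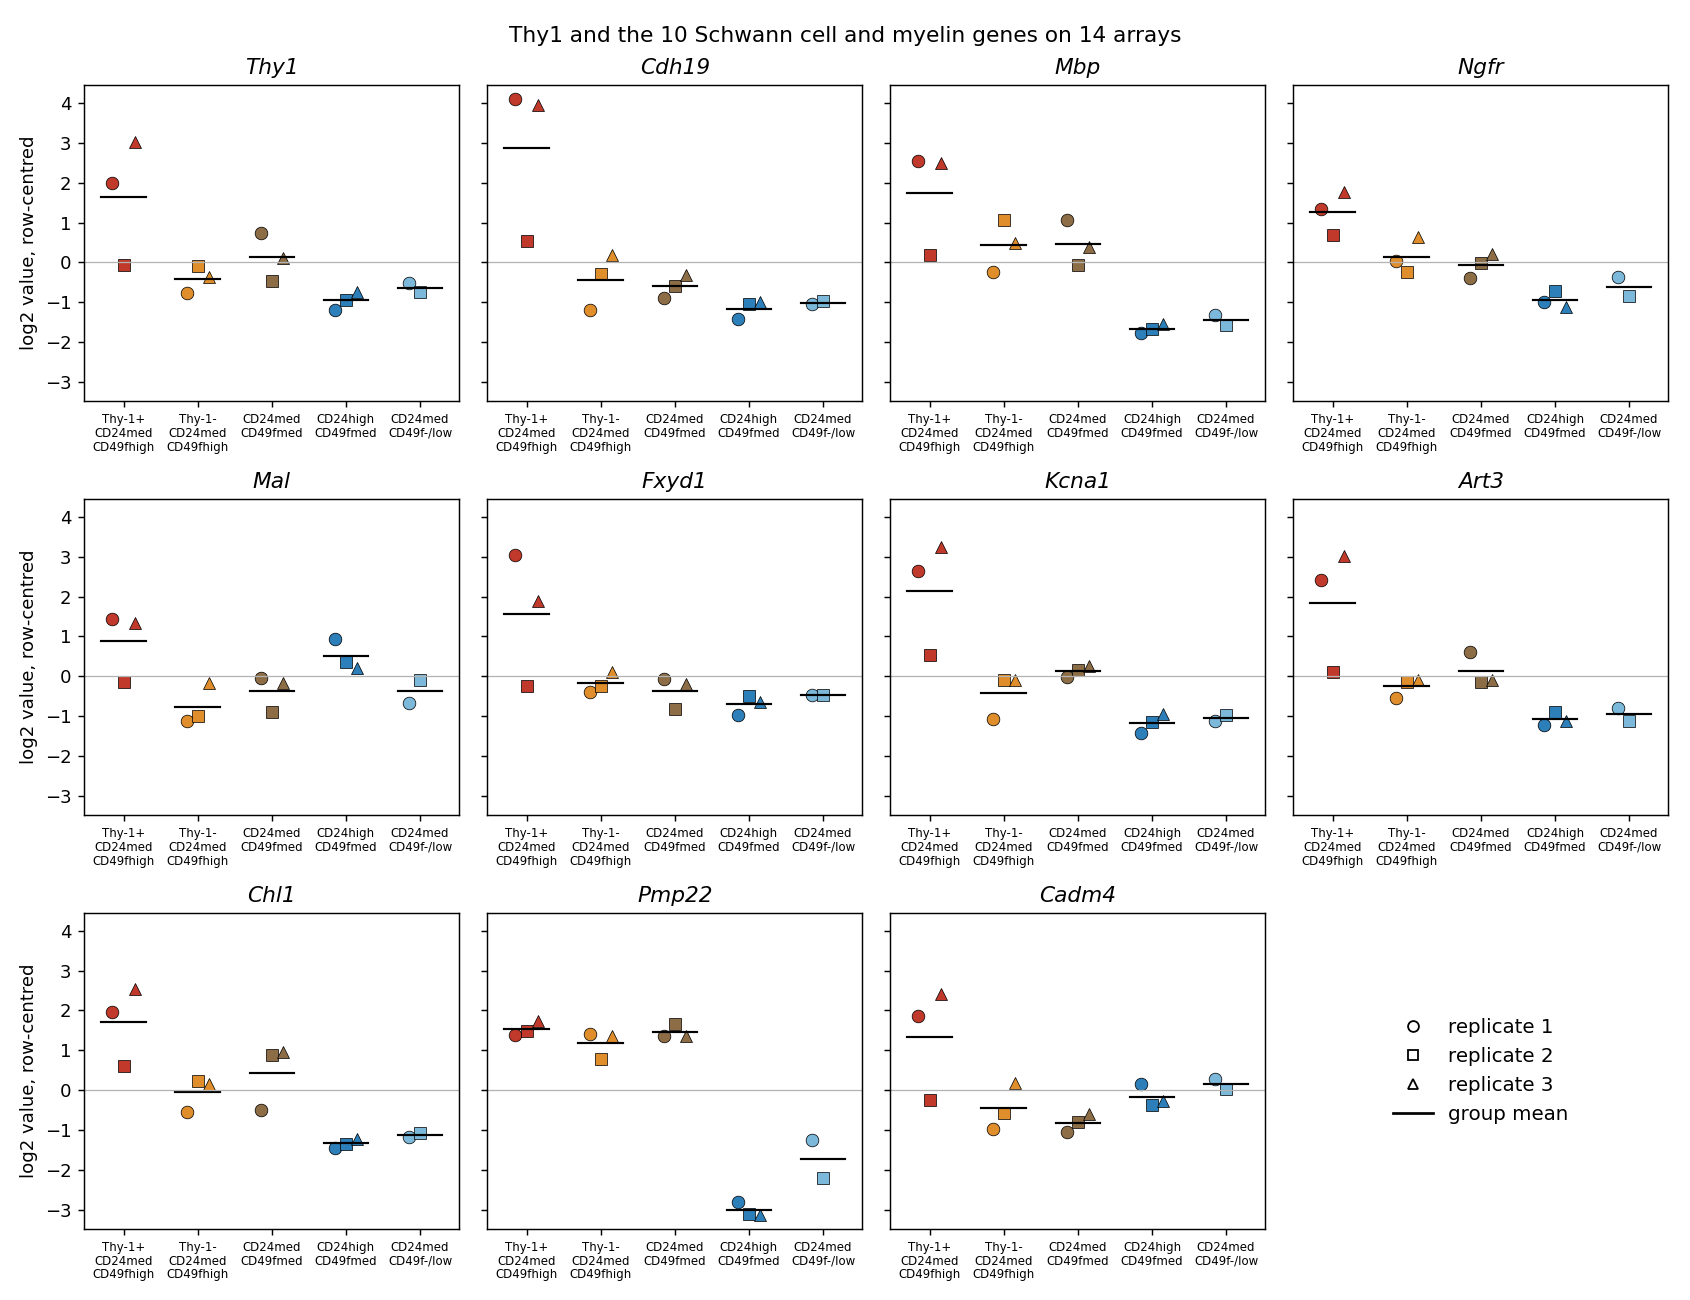
Log2 values, centred per probe set, of Thy1 and the 10 genes (y axis) on each array of the 5 populations (x axis), with 1 symbol per replicate and a line at each mean. Thy-1+ replicates 1 and 3 are above the 12 other arrays in every panel of the 10 genes but Pmp22, whose 9 basal arrays form 1 band between 0.78 and 1.74.

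The compact myelin genes Mbp, Pmp22 and Mal took 3 different courses. Mbp encodes myelin basic protein, which holds the inner faces of the myelin membrane together. It was 2.55, 0.17 and 2.49 on the Thy-1+ arrays, -0.23, 1.06 and 0.48 on the Thy-1- arrays, 1.08, -0.06 and 0.37 on the CD49fmed arrays, -1.77, -1.67 and -1.55 on the CD24high arrays and -1.33 and -1.58 on the CD49f-/low arrays. Every basal array lay above every luminal array, and within the basal arrays Thy-1+ replicate 2 lay inside the range of the other 6. The basal step of Mbp was 2.03, or 4.08-fold, and its Thy-1+ step 1.29 (2.44-fold, SE 0.55), or 2.07 without Thy-1+ replicate 2, which puts both steps about level.

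The 7 probe sets of Mbp disagreed. Correlations between pairs of them over the 14 arrays ran from -0.786 to 0.998. The probe set of widest range stood at 4.55, 0.85 and 3.54 on the Thy-1+ arrays, 0.19 to 2.18 on the 6 other basal arrays and -3.63 to -2.82 on the luminal arrays. Another probe set ran the other way, at -1.02 to 0.12 on the basal arrays and 0.86 to 1.61 on the luminal ones. Left out after its values were seen, it took the Thy-1+ step of Mbp to 1.47 and the basal step to 2.66. Mbp shares its locus with the longer Golli transcripts, and which transcripts each probe set reads was not analysed here.

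**Figure D2:**
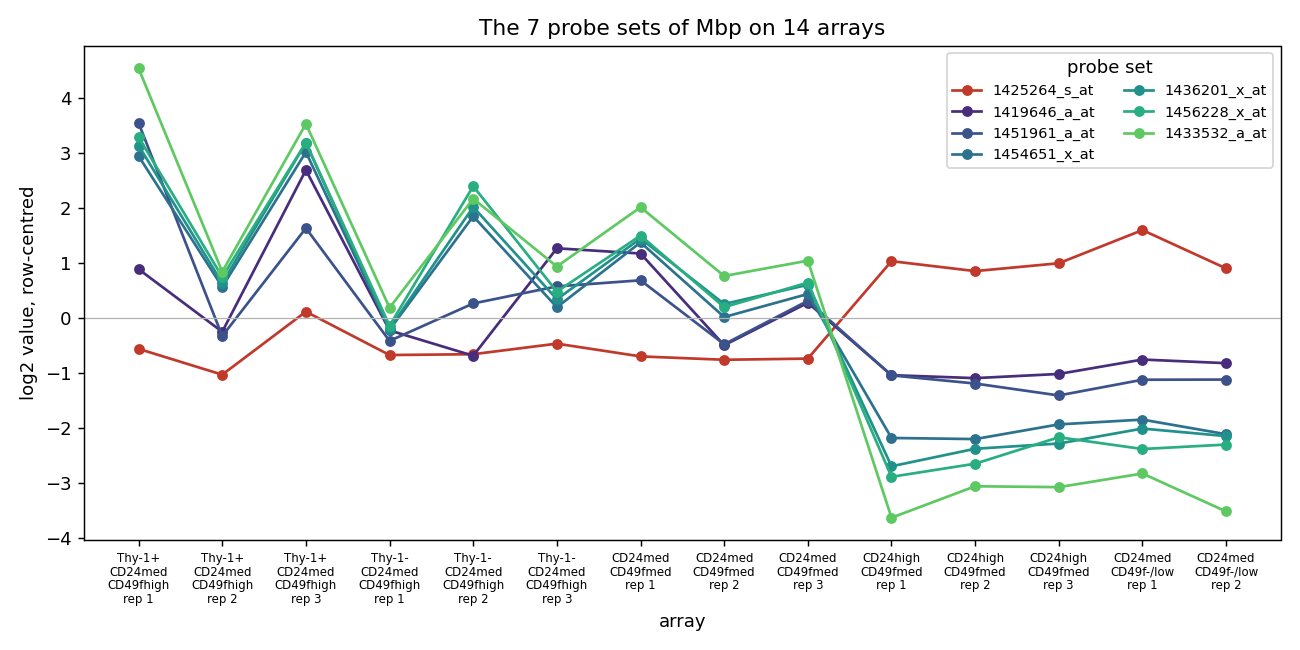
Log2 values, centred per probe set, of the 7 Mbp probe sets (y axis) on the 14 arrays (x axis), joined by lines for each probe set. On average 6 probe sets are higher on basal than on luminal arrays, and the 1 drawn in red is lower.

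Pmp22, which encodes a tetraspan protein of compact myelin that is also present at epithelial junctions, did not follow Thy1. It was 1.38, 1.49 and 1.74 on the Thy-1+ arrays, 1.41, 0.78 and 1.35 on the Thy-1- arrays, 1.35, 1.65 and 1.35 on the CD49fmed arrays, -2.81, -3.10 and -3.13 on the CD24high arrays and -1.25 and -2.22 on the CD49f-/low arrays. The 3 basal populations overlapped and all 9 of their arrays were at least 2.04 above the highest luminal one. Its basal step of 3.82, or 14.1-fold, was the largest of the 10 genes and its Thy-1+ step of 0.22 (1.17-fold, SE 0.41) the smallest, with 0.25 when Thy-1+ replicate 2 was left out. Pmp22 was also the gene in which the 2 luminal populations stood furthest apart.

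Mal encodes a proteolipid of myelin and of the apical sorting route in epithelia. Its values were 1.45, -0.13 and 1.35 on the Thy-1+ arrays, -1.13, -0.999 and -0.16 on the Thy-1- arrays, -0.05, -0.91 and -0.16 on the CD49fmed arrays, 0.94, 0.36 and 0.21 on the CD24high arrays and -0.66 and -0.09 on the CD49f-/low arrays. Luminal CD24high cells were thus the second highest population, all 3 arrays above the Thy-1- and CD49fmed arrays and none above Thy-1+ replicates 1 and 3. Mal had a Thy-1+ step of 1.46 (2.75-fold, SE 0.48), or 1.97 without Thy-1+ replicate 2, and a basal step of -0.72.

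Among the receptor and adhesion genes, Cdh19 had the largest Thy-1+ step of the 10. Cdh19 encodes a cadherin that marks Schwann cell precursors and peripheral glia. It was 4.10, 0.53 and 3.96 on the Thy-1+ arrays, -1.19, -0.28 and 0.18 on the Thy-1- arrays, -0.90, -0.58 and -0.31 on the CD49fmed arrays, -1.43, -1.05 and -1.0 on the CD24high arrays and -1.05 and -0.98 on the CD49f-/low arrays. All 3 Thy-1+ arrays, replicate 2 included, were above the other 11, while the other basal and the luminal arrays overlapped. The Thy-1+ step was 3.38 (10.4-fold, moderated SE 0.64), or 4.54 without Thy-1+ replicate 2, against a basal step of 0.59. The 3 Thy-1+ arrays themselves had an SD of 2.02.

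Ngfr encodes the low-affinity neurotrophin receptor, a marker of immature and non-myelinating Schwann cells that is also present on basal epithelial cells. It was 1.34, 0.69 and 1.78 on the Thy-1+ arrays, 0.04, -0.24 and 0.63 on the Thy-1- arrays, -0.39, -0.01 and 0.22 on the CD49fmed arrays, -1.002, -0.71 and -1.12 on the CD24high arrays and -0.37 and -0.85 on the CD49f-/low arrays. The Thy-1+ arrays were the highest 3 of the 14, with replicate 2 only just above Thy-1- replicate 3, and CD49fmed replicate 1 fell 0.01 short of CD49f-/low replicate 1. The steps were 1.23 (2.34-fold, SE 0.44) and 0.85, and the Thy-1+ step was 1.52 without Thy-1+ replicate 2.

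Chl1, close homolog of the adhesion molecule L1, serves contact between neurites and glia. It was 1.97, 0.62 and 2.55 on the Thy-1+ arrays, -0.55, 0.24 and 0.15 on the Thy-1- arrays, -0.51, 0.87 and 0.95 on the CD49fmed arrays, -1.45, -1.34 and -1.23 on the CD24high arrays and -1.18 and -1.08 on the CD49f-/low arrays. Each basal array was above each luminal array and Thy-1+ replicate 2 lay below CD49fmed replicates 2 and 3, so that both steps were nearly equal at 1.52 (2.87-fold, SE 0.51) and 1.45 (2.73-fold). Without Thy-1+ replicate 2 the Thy-1+ step of Chl1 was 2.07.

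Cadm4 encodes a nectin-like protein through which Schwann cells hold on to axons. It was 1.86, -0.25 and 2.42 on the Thy-1+ arrays, -0.98, -0.58 and 0.17 on the Thy-1- arrays, -1.06, -0.79 and -0.60 on the CD49fmed arrays, 0.15, -0.38 and -0.26 on the CD24high arrays and 0.27 and 0.03 on the CD49f-/low arrays. Thy-1+ replicates 1 and 3 stood alone, and of the other 4 populations the luminal ones had the higher means. Its Thy-1+ step was 1.98 (3.96-fold, SE 0.54), or 2.78 without Thy-1+ replicate 2, and its basal step -0.60.

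Kcna1 and Fxyd1 act on ion transport. Kcna1 encodes a potassium channel subunit found beside the nodes of myelinated axons. It was 2.65, 0.53 and 3.25 on the Thy-1+ arrays, -1.07, -0.08 and -0.09 on the Thy-1- arrays, -0.01, 0.16 and 0.26 on the CD49fmed arrays, -1.41, -1.14 and -0.95 on the CD24high arrays and -1.13 and -0.96 on the CD49f-/low arrays. All 3 Thy-1+ arrays were above the other 11, and the 3 CD49fmed arrays were above the 3 Thy-1- arrays. Its steps were 2.28 (4.86-fold, SE 0.54) and 0.98, and the Thy-1+ step was 3.09 without Thy-1+ replicate 2.

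Fxyd1 encodes phospholemman, a regulator of the sodium pump. Its values were 3.04, -0.24 and 1.89 on the Thy-1+ arrays, -0.39, -0.26 and 0.10 on the Thy-1- arrays, -0.07, -0.81 and -0.20 on the CD49fmed arrays, -0.96, -0.50 and -0.65 on the CD24high arrays and -0.47 and -0.47 on the CD49f-/low arrays. It was a gene of Thy-1+ replicates 1 and 3 alone, with replicate 2 inside the range of the other basal arrays and those in turn overlapping the luminal arrays. Its steps were 1.83 (3.57-fold, SE 0.57) and 0.34, and the Thy-1+ step was 2.73 without Thy-1+ replicate 2.

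Art3, a gene of the ADP-ribosyltransferase family whose protein is tethered to the cell surface by the same kind of lipid anchor as Thy-1, ran closest to Thy1. It was 2.41, 0.11 and 3.03 on the Thy-1+ arrays, -0.55, -0.13 and -0.09 on the Thy-1- arrays, 0.61, -0.13 and -0.10 on the CD49fmed arrays, -1.23, -0.89 and -1.12 on the CD24high arrays and -0.79 and -1.12 on the CD49f-/low arrays. CD49fmed replicate 1 was high in Art3 as it was in Thy1, and every basal array was above every luminal array. The steps were 1.92 (3.78-fold, SE 0.55) and 0.97, and the Thy-1+ step was 2.79 without Thy-1+ replicate 2.

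To tell the genes apart, a gene was said to follow Thy1 where its Thy-1+ step was larger than its basal step and its correlation with Thy1 over the 9 basal arrays was 0.7 or more, and to mark basal cells where each of the 9 basal arrays was above each of the 5 luminal ones. A gene could do both. All 10 genes had a Thy-1+ step above 0 (27.6% of all rows had), 8 a basal step above 0 (43.2%) and 9 a correlation of 0.7 or more (6.34%). Thy1 was followed by 8 genes: Cdh19, Ngfr, Mal, Fxyd1, Kcna1, Art3, Chl1 and Cadm4, where 6.01% of all 7190 rows did. Basal cells were marked by 4 genes: Mbp, Art3, Chl1 and Pmp22, where 9.51% of all rows did. Art3 and Chl1 were in both groups, Mbp and Pmp22 marked basal cells only, and the remaining 6 only followed Thy1. As the genes were chosen on these patterns, the counts describe the choice and are not evidence of it. Just inside the rules were Chl1, whose steps differed by less than their spread, and Ngfr with r = 0.769. Just outside were Mbp, with r = 0.938 but the larger basal step, and Ngfr again, whose basal and luminal ranges met within 0.01.

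The correlation with Thy1 over the 9 basal arrays (Pearson's r, with arrays of the same population not independent) was 0.985 for Art3, 0.945 for Kcna1, 0.938 for Mbp, 0.920 for Mal, 0.892 for Cdh19, 0.879 for Cadm4, 0.862 for Fxyd1, 0.799 for Chl1, 0.769 for Ngfr and 0.353 for Pmp22. Art3 ranked 2 among the 6044 named genes, behind Thy1 itself. For most of the 10 genes the relation rested on Thy-1+ replicates 1 and 3. Over the 7 basal arrays without those, r was 0.916 for Art3, 0.766 for Mbp and 0.678 for Mal, between 0.442 and 0.507 for Fxyd1 and Kcna1, and between -0.349 and 0.049 for Cdh19, Ngfr, Chl1, Pmp22 and Cadm4.

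**Figure D3:**
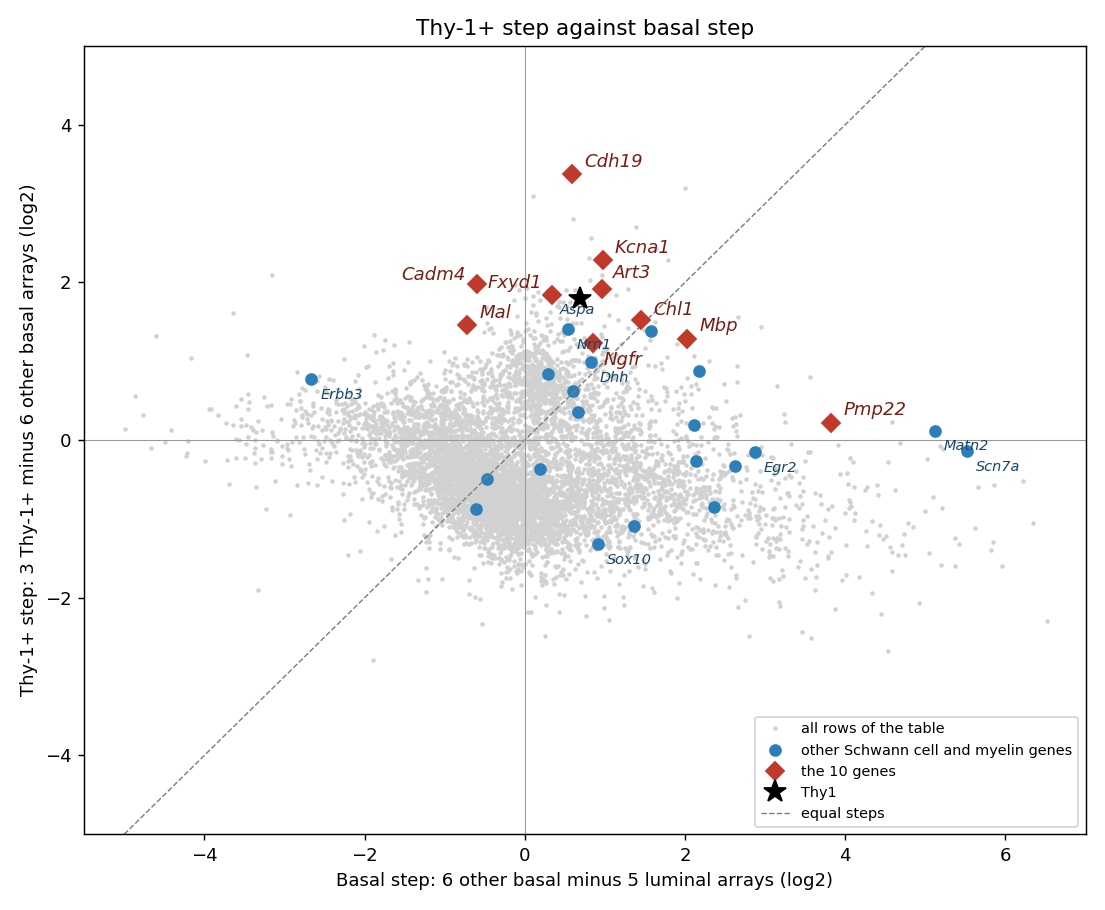
Thy-1+ step (y axis, log2, mean of 3 Thy-1+ minus mean of 6 other basal arrays) against basal step (x axis, log2, mean of 6 other basal minus mean of 5 luminal arrays) for all 7190 rows, with the 10 genes, Thy1 and 21 other Schwann cell and myelin genes marked. Genes above the dashed line have the larger Thy-1+ step. Mbp and Pmp22 lie under it, Chl1 close to it, and Mal and Cadm4 at basal steps below 0, while Aspa is hidden behind Fxyd1.

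Thy-1+ replicate 2, taken alone, still stood above the mean of the 6 other basal arrays by 1.04 in Cdh19, 0.67 in Kcna1 and 0.65 in Ngfr, and these were also the genes in which it was above each of those 6 arrays (6.97% of all rows were). In Mal, Chl1 and Cadm4 it was 0.39 to 0.44 above their mean, in Art3, Pmp22 and Fxyd1 0.04 to 0.18, and in Mbp the difference was -0.27. Replicates 1 and 3 were above each of the 12 other arrays in all of the genes but Pmp22, as in 5.02% of all rows.

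By mean, the Thy-1+ population came first in each of the 10 genes, an order that their choice favoured. Its range was clear of the next population in Cdh19, Ngfr and Kcna1 and overlapped it in the other 7. Each Thy-1+ array was above each other basal array in 0.529% of all rows. CD49fmed came second in Mbp, Kcna1, Art3, Chl1 and Pmp22, Thy-1- in Cdh19, Ngfr and Fxyd1, CD24high in Mal and CD49f-/low in Cadm4. The Thy-1- and CD49fmed ranges overlapped in all but Kcna1. The lowest mean was that of CD24high cells in 8 genes, of Thy-1- cells in Mal and of CD49fmed cells in Cadm4.

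A pair of comparisons had played no part in the choice of the genes and were tested with limma over all 7190 rows. No difference between Thy-1- and CD49fmed cells passed in any of the 10 genes. The differences ran from -0.55 (SE 0.35) in Kcna1 to 0.36 (SE 0.36) in Cadm4, the limma adjusted p was 0.999 for each, and 0 of the 10 had an unadjusted p under 0.05. No row of the table passed the adjusted threshold here (0% called), and 84 rows (1.17%) had an unadjusted p under 0.05. Standard errors of 0.31 to 0.44 over 3 arrays a group leave room for differences that this design could not show. Kcna1 was the only one of the 10 genes whose Thy-1- and CD49fmed arrays did not overlap, with 3.74% of all rows.

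Between the luminal populations, CD24high cells had less Pmp22 than CD49f-/low cells. Pmp22 averaged -3.01 ± 0.18 in CD24high cells (SD, n = 3) and -1.73 ± 0.68 in CD49f-/low cells (SD, n = 2), a log2 difference of -1.28 (SE 0.28, two-sided limma adjusted p = 0.0405). It was 1 gene of 10, where 5.59% of all rows were called (402 rows, of which 217, or 3.02%, were higher and 185, or 2.57%, lower in CD24high cells). The call rested on single arrays: without CD49f-/low replicate 1 the difference was -0.80 (adjusted p = 0.307), and leaving out CD24high replicate 2 or 3 gave adjusted p = 0.0941 and 0.136, against 0.0249 without CD24high replicate 1 and 0.0222 without CD49f-/low replicate 2. The median of the 3 measured myeloid genes was -0.39 to -0.31 on the CD24high arrays, against 2.30 on CD49f-/low replicate 1 and 0.22 on replicate 2. The 3 genes disagreed: on CD49f-/low replicate 1 Lyz2 was 2.30 and Cd14 2.78, but Ptprc 0.19. Cd14 was high on the CD24high arrays too, at 1.22 to 1.84. The median of 11 fibroblast genes was -1.44 to -1.21 on the CD24high arrays, against -0.28 on CD49f-/low replicate 1 and -1.20 on replicate 2. The part of either list in the Pmp22 value was not tested. Mal averaged 0.50 ± 0.39 in CD24high cells (n = 3) and -0.38 ± 0.40 in CD49f-/low cells (n = 2), and its difference of 0.88 (SE 0.27) missed the threshold (adjusted p = 0.0908 in limma). The other 8 genes differed by -0.33 to -0.12, with adjusted p from 0.360 to 0.723. The ranges of both luminal populations were apart in Mal, Fxyd1, Chl1 and Pmp22, as in 47.4% of all rows.

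For the contrasts that the choice of genes used, the fits are given as a description. Thy-1+ cells against both other basal populations gave 0 limma calls among all rows (0% called) and so none among the 10 genes. An unadjusted p under 0.05 was reached by 1106 rows (15.4%) and by 9 of the 10 genes. Without Thy-1+ replicate 2, 9 of the 10 genes, all but Pmp22, were called, as were 29.3% of all rows. Against Thy-1- cells alone Cdh19 was called, 1 of 3 such rows (0.0417%), and 0 rows were called when any of the 6 arrays but Thy-1+ replicate 2 was left out, with all 14 arrays in 1 fit, on single probe sets or after either renormalization (median centring, quantiles). Against CD49fmed cells alone 0 rows were called (0%), with an unadjusted p under 0.05 in 383 rows (5.33%) and in 7 of the 10 genes. With the replicate number as a block, which pairs these arrays, Cdh19, Kcna1 and Cadm4 were called there, 3 of 55 rows (0.765%). In the mean of the basal populations against that of the luminal ones, 7 genes were higher (Cdh19, Mbp, Ngfr, Kcna1, Art3, Chl1 and Pmp22, beside 17.4% of all rows) and none lower (27.7% of all rows). With the Thy-1+ arrays left out, 6 were higher, Cdh19 no longer among them (22.5% of all rows), and Cadm4 was lower (28.8%).

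A wider list of 44 Schwann cell and myelin genes that are not among the 10 was described in the same terms. Of the 44, 21 were measured, and the others were not analysed here. The median basal step of the 21 was 0.91 (18 of 21 above 0), against -0.16 over all rows, and their median Thy-1+ step was 0.12 (11 of 21 above 0), against -0.46 over all rows. The 10 chosen genes had medians of 0.91 and 1.68. Without Thy-1+ replicate 2 the median Thy-1+ step was 0.10 for the 21 genes, 2.40 for the 10 and -0.71 for all rows. Of the 21, 9 marked basal cells (Cnp, Dhh, Drp2, Egr2, Matn2, Ncam1, Nkain2, Scn7a and Sema3b, beside 9.51% of all rows) and 5 followed Thy1 (Aspa, Dhh, Erbb3, L1cam and Nrn1, beside 6.01%). In limma, 15 of the 21 were higher (17.4% of all rows were) and 2 lower (27.7%) in basal than in luminal cells, and none was called in Thy-1+ cells against both other basal populations, in Thy-1- against CD49fmed cells or in CD24high against CD49f-/low cells.

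The largest basal steps of that list belonged to genes with Thy-1+ steps near 0. Scn7a, a sodium channel gene of Schwann cells, had steps of 5.52 (basal) and -0.13 (Thy-1+), and the matrix protein gene Matn2 of 5.12 and 0.12, with Thy-1+ steps of 0.03 and 0.16 in that order without Thy-1+ replicate 2. Egr2 was 1.00, 1.29 and 0.43 on the Thy-1+ arrays, 1.01 to 1.11 on the Thy-1- arrays, 0.92 to 1.15 on the CD49fmed arrays and -2.36 to -1.25 on the luminal arrays. As in Pmp22, every basal array was above every luminal array. Within the basal arrays the genes differed, since Thy-1+ replicate 3 was the lowest in Egr2 and the highest in Pmp22. The Thy-1+ step of Egr2 was -0.152, or -0.345 without Thy-1+ replicate 2. Erbb3, a neuregulin receptor gene of Schwann cells and of luminal epithelium, had a basal step of -2.67. Its Thy-1+ step was 0.77, or 1.44 without Thy-1+ replicate 2.

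Aspa, which encodes the aspartoacylase of myelinating glia, had the largest Thy-1+ step of the list, 1.85, with a basal step of 0.33. It was 2.16, 0.28 and 2.28 on the Thy-1+ arrays, -0.998 to 0.03 on the 6 other basal arrays and -0.87 to -0.24 on the luminal arrays, so that all 3 Thy-1+ arrays were the highest, as in Cdh19. Nrn1, a neurite growth gene, had a Thy-1+ step of 1.41, the endothelin receptor gene Ednrb 1.38 and Dhh, the hedgehog ligand that Schwann cells make, 0.99. Without Thy-1+ replicate 2 these steps were 2.496 for Aspa, 2.11 for Nrn1, 1.503 for Ednrb and 1.49 for Dhh. Ednrb was 3.23, 1.41 and 0.32 on the Thy-1+ arrays, -0.018, 0.045 and -1.224 on the Thy-1- arrays and 1.96, 1.35 and -0.51 on the CD49fmed arrays. Replicates 1 and 2 were thus above replicate 3 in each basal population.

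Sox10 did not run with the 10 genes. It was -2.79, 0.54 and 0.10 on the Thy-1+ arrays, 0.53, 0.36 and 1.44 on the Thy-1- arrays, 0.34, 0.56 and 0.43 on the CD49fmed arrays, -1.11, -0.22 and -0.79 on the CD24high arrays and 0.34 and 0.27 on the CD49f-/low arrays. Thy-1+ replicate 1, where Cdh19 and Fxyd1 were at their highest, had the lowest Sox10 value of the 14 arrays. Thy-1+ replicate 2 lay inside the range of the other basal arrays, 0.34 to 1.44, and Thy-1+ replicate 3 lay below it. The size of the Thy-1+ step thus came mostly from replicate 1, and a fall shared by the Thy-1+ arrays was not shown. The Thy-1+ step of Sox10 was -1.32, or -1.95 without Thy-1+ replicate 2, and its basal step 0.91. Plekhb1 and Tspan2 had negative Thy-1+ steps too, of -1.08 and -0.84, or -1.73 and -1.31 without that array.

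**Figure D4:**
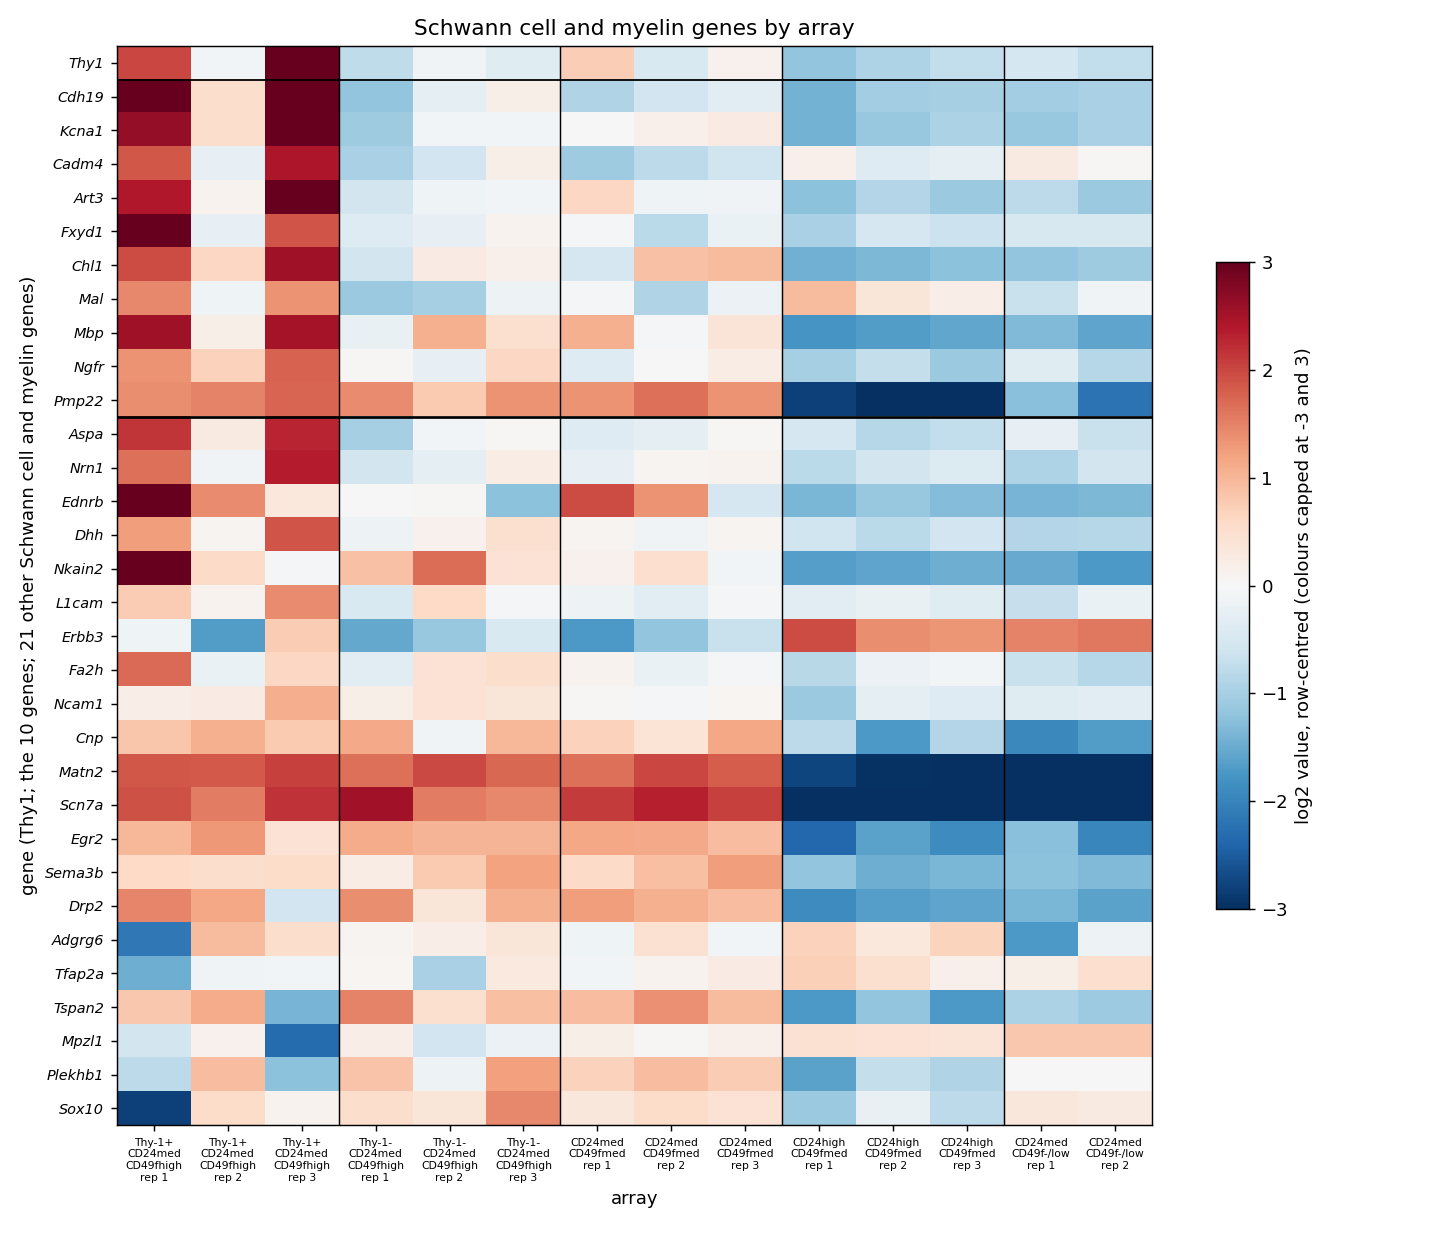
Log2 values, centred per probe set, of Thy1, the 10 genes and 21 other Schwann cell and myelin genes (y axis) on the 14 arrays (x axis, grouped by population), with red above and blue below the gene's mean and colours capped at -3 and 3. Cdh19, Kcna1, Aspa and Nrn1 are red on Thy-1+ replicates 1 and 3, Pmp22, Matn2, Scn7a and Egr2 on all 9 basal arrays, and Sox10 is blue on Thy-1+ replicate 1.

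Family members and partners of the 10 genes were looked at as a further list of 66, of which 27 were in the table. Their median Thy-1+ step was 0.08 (15 of 27 above 0), or 0.10 without Thy-1+ replicate 2, and their median basal step 0.36 (20 of 27 above 0). Thy1 was followed by 5 (Atp1b2, Emp3, Kcna2, Mal2 and Sort1, beside 6.01% of all rows) and 6 marked basal cells (Cdh11, Cdh2, Cntn2, Nrcam, Ntrk3 and Sema3a, beside 9.51%). In basal against luminal cells 12 were called higher (17.4% of all rows were) and 7 lower (27.7%), and in Thy-1+ against Thy-1- cells 1 was lower (0.0139% of all rows, which is that gene alone).

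Kcna2, which encodes the subunit that joins that of Kcna1 in channels of myelinated axons, had steps of 2.02 (Thy-1+) and 0.81 (basal) and ran with Kcna1 at r = 0.993 over the 14 arrays. Atp1b2, a sodium pump subunit gene of glia, had a Thy-1+ step of 1.24. Without Thy-1+ replicate 2 these Thy-1+ steps were 2.76 for Kcna2 and 1.74 for Atp1b2. Mal2 and Sort1, a sorting partner of the neurotrophin receptor, were luminal genes, with basal steps of -3.64 and -1.72, that had Thy-1+ steps of 1.61 and 0.59, or 2.48 and 1.10 without Thy-1+ replicate 2.

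Other partners of Ngfr took several courses. The gene called lower in Thy-1+ than in Thy-1- cells was Bex1, whose protein binds the Ngfr receptor: it was -4.49, -0.95 and -3.18 on the Thy-1+ arrays and 0.24, 0.83 and 0.62 on the Thy-1- arrays. Like that of Cdh19, its call (limma adjusted p = 0.0343) was lost with all 14 arrays in 1 fit, on single probe sets, after median centring or quantile normalization, and on leaving out any of the 6 arrays but Thy-1+ replicate 2, since no row at all was called then. Bdnf, a ligand, had a Thy-1+ step of -1.36, or -2.56 without Thy-1+ replicate 2, and a basal step of 2.38. Of the signalling receptors, Ntrk3 marked basal cells (a Thy-1+ step of 0.08, or 0.05 without Thy-1+ replicate 2, and a basal step of 1.89) and Ntrk2 was high on Thy-1+ replicate 1 only (2.72, with -0.72 and -0.11 on replicates 2 and 3). Between luminal cells the 1 gene of this list called was Bdnf, 0.85 higher in CD24high than in CD49f-/low cells (SE 0.18, limma adjusted p = 0.0377, beside 3.02% of all rows called higher). Without CD49f-/low replicate 1 that call was lost, as 0 rows were called.

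Markers of other cell types differed between Thy-1+ replicates 1 and 3, and between replicates of the other basal populations too. Centring leaves no level at which a marker could be called absent. The median of 12 endothelial genes (of 14) was 2.78, 0.01 and -0.09 on the Thy-1+ arrays, in replicate order. It was 0.47, -0.73 and -0.78 on the Thy-1- arrays and 2.29, 0.83 and -0.75 on the CD49fmed arrays. On the luminal arrays it was -0.97 to -0.80 (CD24high) and -0.78 to -0.70 (CD49f-/low). The median of 7 cornified keratinocyte genes (of 11) was -1.54, 0.60 and 4.50 on the Thy-1+ arrays. It was -1.74, 0.66 and 1.61 on the Thy-1- arrays and -1.56, 2.105 and 2.104 on the CD49fmed arrays. In each basal population, replicate 1 was thus the highest in endothelial genes and the lowest in cornified genes. Of the Thy-1+ arrays, replicate 3 was the highest in cornified genes. In 9 of the 10 genes Thy-1+ replicates 1 and 3 were both above each of the 12 other arrays, as in 5.02% of all rows. The choice of the genes favoured that course, and how it relates to these markers was not tested.

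Fibroblast genes (11 of 14) had medians of 0.41, 0.21 and 1.39 on the Thy-1+ arrays, -0.18 to 0.03 on the Thy-1- arrays and 0.11 to 0.71 on the CD49fmed arrays. Of the 11, 9 had a Thy-1+ step above 0 (27.6% of all rows had). Thy1 was followed by 5 (Col1a1, Col1a2, Col6a3, Dpt and Mfap5, beside 6.01% of all rows), of which Col6a3 had a basal step of -2.59. Fbln1 and Serpinf1 went the other way, with Thy-1+ steps of -1.04 and -0.87, or -1.23 and -1.08 without Thy-1+ replicate 2. Basal cells were marked by 4 (Col5a1, Dcn, Fbln1 and Serpinf1, beside 9.51% of all rows). Col1a1, the fibrillar collagen gene, was 2.71, -0.45 and 2.89 on the Thy-1+ arrays and -0.65 to 0.40 on the 6 other basal arrays, which is the course of Thy1 and of Art3. Pericyte genes (8 of 9) had medians of 2.01, -0.21 and 0.41 on the Thy-1+ arrays and adipocyte genes (4 of 9) of 1.44, 0.06 and 0.41. The 15 basal epithelial markers had medians of 0.61 and 0.13 on Thy-1+ replicates 1 and 3, against 1.74 on replicate 2 and 0.65 to 2.40 on the 6 other basal arrays. Each of the 15 had a Thy-1+ step below 0, where only 27.6% of all rows had one above 0. Their median step was -0.86, against -0.46 over all rows, and -1.36 against -0.71 without Thy-1+ replicate 2. Luminal markers (15 of 17) had a median Thy-1+ step of 0.01, or 0.15 without that array. Of melanocyte, neuron and myeloid genes only 2 of 10, 2 of 14 and 3 of 11 were in the table, with median Thy-1+ steps of 0.45, 0.02 and 0.28, or 0.65, -0.09 and 0.45 without Thy-1+ replicate 2. The part of any of these cell types in the values of the 10 genes was not tested.

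The genes closest to Thy1 over the 9 basal arrays, by Pearson's r, were Art3, Col1a2 (0.982), Vmn1r42 (0.978), Sprr2d (0.969), Gatm (0.969), H60c (0.968), Col1a1 (0.966), Rarres2 (0.965), Col3a1 (0.962) and Atp1b2 (0.960). Of these, 3 encode fibrillar collagen chains and Art3 is the 1 gene of the 10 in that list. The nearest genes to each of the 10, over the 14 arrays, separated them again. Pmp22 ran with Vim (0.980), Dio2, Fyn, Plekha4 and Sparc (0.972). Cdh19 ran with Aspa (0.979), Kcna2 (0.977), Gjb5, Nr2f1 and Kcna1 (0.963), and Kcna1 with Kcna2, Rarres2 (0.980), Art3, Nrn1 and Gatm (0.971). Art3 ran with Rarres2 (0.993), Thy1 (0.981), Col1a2, Gatm and Kcna1.

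Mbp was nearest to Nrp2 (0.954), S1pr3, Tgfbi, Dhh (0.935) and Slc35f1. Ngfr and Chl1 shared Lgi1 (0.933 and 0.965 in that order) and Abca8a (0.923 and 0.954) among their nearest genes, beside Pdzd2, Tmod2 and Slc35f1 for Ngfr and Kcna1, Flrt2 and Tgfbi for Chl1. Fxyd1 was nearest to Ildr2 (0.982), Adamtsl5, Hspb7, A830082K12Rik and Syk. Mal and Cadm4, the genes with basal steps below 0, shared Stard13 (0.870 and 0.888) and H60c (0.851 and 0.879) and had the weakest nearest neighbours of the 10, with Nr2f2, Pex11g and Mboat7 beside Mal and H1f8 (0.910), Rnf222 and Defb11 beside Cadm4. Among the 10 genes themselves over the 9 basal arrays, Cdh19 and Cadm4 were the closest pair (0.981) and Mbp and Pmp22 the least alike (0.063).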

How the data were processed

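Total RNA of 14 sorted samples had been extracted with Trizol, labelled by a two-cycle 3′ protocol and hybridized to Affymetrix arrays. The authors deposited 1 table of log2 values, normalized by RMA (the submitters' notes also name GCRMA, with versions not given in the sources used here), filtered for signal and for a 4-fold difference between arrays, and mean-centred per probe set. The 9645 probe sets had row means of 0 and a smallest range of 2.0. GEO's platform annotation, which can be dated, gave 8499 probe sets 1 symbol, averaged to 6044 named genes. The 199 with several symbols and 947 with none stayed single rows, 7190 in all. Dim probe sets and absolute levels could not be judged from centred values.

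Comparisons used limma 3.58.1 in R 4.3.3 on the arrays of the groups compared, two-sided, with Benjamini-Hochberg adjustment over all rows and 0.05 as the threshold. Rank products, which the study's methods name, draw p from shuffled genes and were not run. The fits were tested on simulated data. Correlations were computed in Python 3.11.15 (numpy 2.4.6, pandas 2.3.3) and figures drawn with matplotlib 3.10.9.

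The 10 genes, the gene lists (Schwann cell and myelin, relatives and partners, melanocyte, neuron, basal, luminal, fibroblast, endothelial, pericyte, myeloid, adipocyte and cornified keratinocyte) and the tests were chosen with earlier results of these data known. Named beside the 10 genes and Thy1 were, by rule, the list genes with the largest steps, 7 Schwann cell and neurotrophin receptor genes where measured, and the genes with the highest correlations. Others, such as Egr2, were singled out after their values were seen.

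Whether replicate numbers pair arrays was checked by correlating deviations from group means. They paired CD49fmed with Thy-1+ arrays (r = 0.388, 0.391 and 0.386) and with Thy-1- arrays (0.374, 0.328 and 0.558), not Thy-1+ with Thy-1- arrays (-0.002, -0.160 and 0.245), and with 2 luminal pairs (0.296 and 0.151) they were taken as numbers only. The main fits had no block, so in comparisons with CD49fmed arrays their SEs include spread shared by replicate number. With the block, 3 of the 10 genes passed in Thy-1+ against CD49fmed cells, where 0 passed without it. Alternatives were all 14 arrays in 1 fit, the replicate block, array weights, single probe sets, median centring, quantile normalization, a minimum difference, the probe set of widest range, Spearman's rho, leaving out each array and, added after the data were seen, Mbp without 1 probe set. The number of arrays limits the precision.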

Additional observations from a re-analysis of the deposited data

How the results depend on the processing

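No Thy-1+ step or basal step of the 10 genes changed sign under any of 17 alternatives each (18 for Mbp), and 332 of 342 values moved by less than the spread between arrays. The basal step of Mbp was 4.41 with its probe set of widest range. Centring each array on its median took the Thy-1+ step of Pmp22 to 0.68 and of Ngfr to 1.68, since the median Thy-1+ step of all rows is -0.46. Thy1 was followed by 8 genes, with 4 (Mal, Fxyd1, Kcna1 and Art3) under Spearman's rho, 6 after quantile normalization, and 6 to 9 as each array was left out, 9 (with Mbp) without Thy-1+ replicate 2. Basal cells were marked by 4, with 3 after quantile normalization (Art3 lost), 5 after median centring (Ngfr added), and 4 to 6 as each array was left out, 6 (with Cdh19 and Kcna1) without Thy-1- replicate 1.

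Counts of called genes among the 10 moved more. In CD24high against CD49f-/low cells the 1 call (Pmp22) became 0 with all 14 arrays in 1 fit (adjusted p = 0.573) or quantile normalization (0.0720), 2 (Mal, adjusted p = 0.0100, and Pmp22) with the replicate block, which is a number only there, and 0 to 1 as each array was left out. Thy-1+ against both other basal populations, with 0 calls, gave 2 with all 14 arrays, 1 with array weights and 0 to 9 as each array was left out, 9 without Thy-1+ replicate 2, while the replicate block left it at 0. Thy-1+ against Thy-1- cells, with 1 call (Cdh19), gave 0 with all 14 arrays, 5 with array weights, 0 on single probe sets, after median centring or quantile normalization, 1 with the replicate block, and 0 to 1 as each array was left out, with 1 only without Thy-1+ replicate 2. Thy-1+ against CD49fmed cells, with 0 calls, gave 3 with the replicate block (Cdh19, Kcna1 and Cadm4), 1 with array weights and 0 to 8 as each array was left out, 8 without Thy-1+ replicate 2. The other basal against the luminal cells, with 7 calls, gave 4 with all 14 arrays, 3 with a minimum difference of 1, and 6 to 8 as each array was left out. The basal against the luminal populations gave 7 to 8. Thy-1- against CD49fmed cells gave 0 calls in limma under each alternative, the replicate block included. The cause of each shift was not tested.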
